A study of Mus musculus with 7 samples.

Results

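Signals of 36 listed genes of mitochondrial and peroxisomal fatty acid oxidation were compared between the brown fat of Gyk knockout (KO) and wild-type mice. Gyk encodes glycerol kinase, which phosphorylates glycerol. The genes were chosen by name, and each was read from its brightest probe set with 1 gene symbol, by mean signal over the 7 arrays. Of the 36 genes, 34 had such a probe set, among 18193 genes in all. Acsl1, a long-chain acyl-CoA synthetase, was not analysed here because the probe table pairs it with 0 probe sets. Cpt1b, the muscle-type outer carnitine palmitoyltransferase, shares its 1 probe set with other genes and was also left out. The 34 genes comprised 18 of mitochondria, 11 of peroxisomes and 5 that act in both compartments or elsewhere in the cell, and all 34 lay above the limit set for dim probe sets.

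Fatty acid oxidation shortens acyl chains by repeated dehydrogenation, hydration, a second dehydrogenation and thiolytic cleavage. In mitochondria the acyl groups of long chains enter as carnitine esters, and the electrons pass through the electron transfer flavoprotein to the respiratory chain, which supplies the heat production of brown fat. Peroxisomes take up very long chains and dicarboxylic acids as CoA esters through ABC transporters of the D family, and shorten them with a separate set of enzymes, many of whose genes are targets of the receptor PPARα.

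All samples were brown fat of male C57BL/6J mice, 3 days old, with 4 KO arrays (replicates 1 to 4) and 3 wild-type arrays (replicates 1, 3 and 4), the wild type serving as control. No treatment is given in the labels, nor which part of Gyk was deleted, in which cells, or whether a sample is 1 animal or a pool. The p-values therefore measure the spread between these samples, which may be technical, and the number of arrays limits their precision. Gyk itself was not analysed here, and genotypes are taken as labelled. The array labelled KO replicate 2 stood apart from the other KO arrays. On the first principal component it scored -13.8, where wild-type arrays scored -33.3 to -23 and KO replicates 1, 3 and 4 scored 33.4 to 35.7. Every sample is labelled male, yet Xist, an RNA made from an inactive X, read 2757 there and 183 to 273 elsewhere. The Y-linked Eif2s3y read 1252 there, within the 1210 to 1566 of the other arrays. Results that rest on KO replicate 2 are given with and without it. This array was singled out in these same data, in part for lying nearer to wild type. Leaving it out thus tends to widen the differences, and 1986 probe sets were called there against 431 with all arrays. Of 14 listed markers of brown fat cells, 13 were measured, and their summed signal was 162847 to 186464 in wild type and 155609 to 200380 in KO, with 0 of 13 called. Most of the sum came from bright genes such as Ucp1, Cox8b and Fabp4, so it says little of dim ones such as Dio2 and Prdm16. Ucp1, the uncoupling protein that defines these cells, lay between 26887 and 37577 on all arrays. In whole tissue, fewer cells of a type and less RNA per cell cannot be told apart.

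Acsm3 rose in KO, and it was the 1 gene of the 34 that passed the test. Acsm3 encodes a medium-chain acyl-CoA synthetase of the mitochondrial matrix, which activates fatty acids for oxidation. On its only probe set the wild-type arrays read 166, 108 and 74 signal units (replicates 1, 3 and 4), and the KO arrays read 389, 308, 1293 and 969 (replicates 1 to 4). Wild-type Acsm3 was dim, as the median signal of all probe sets on those arrays was 131, 154 and 144, so the size of its difference is uncertain. The lowest KO array was above the highest wild-type array, and KO replicates 3 and 4 stood well above the other KO arrays. The mean rose from 116 ± 46.2 (SD, n = 3) to 740 ± 472 (SD, n = 4), a log2 difference of 2.22 ± 0.43 (SE) with a 95% interval of 1.26 to 3.17 and an adjusted p of 0.0371 (limma, Benjamini-Hochberg over 27022 probe sets). This 1 of 34 members higher, 2.94%, compares with 0.951% of all tested probe sets called higher. For falls the count was 0 of 34, against 0.644% of all probe sets. At an unadjusted p under 0.05 there were 8 of 34 members (23.5%) and 16.5% of all probe sets. The Acsm3 call was lost when any array other than KO replicate 2 was left out, with log2 differences of 1.88 to 2.45 and adjusted p-values of 0.062 without KO replicate 1, 0.0902 without KO replicate 3, 0.111 without KO replicate 4, and 0.0867, 0.133 and 0.143 without wild-type replicate 1, 3 or 4. Those fits called 7 to 40 probe sets in all, where the fit with all arrays called 431, so most calls of the series were lost there. Without KO replicate 2 the Acsm3 difference was 2.54 ± 0.39 (limma adjusted p = 0.00508), and 1986 probe sets were called.

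**Figure D1:**
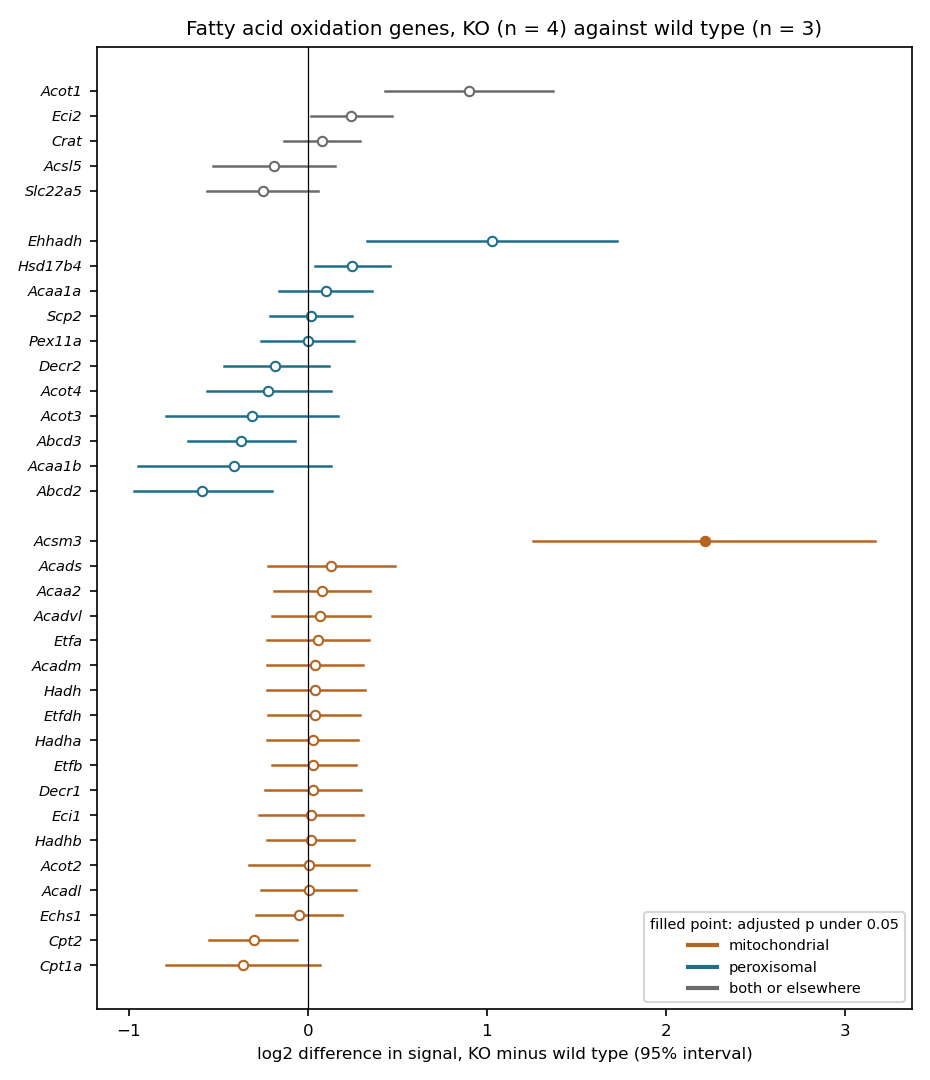
Log2 difference in signal between KO (n = 4) and wild type (n = 3) for the 34 measured genes, grouped by compartment (colours), with 95% intervals from the limma fit; a filled point marks an adjusted p under 0.05. Acsm3 is the only filled point, at 2.22, while most mitochondrial genes lie close to 0 and the peroxisomal genes spread from -0.59 to 1.03.

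Ehhadh, Acot1 and Abcd2 differed by more than the median member but did not pass with all arrays. All 3 passed without the array labelled KO replicate 2. That choice was made from these same data and favours calls, so those passes add no support of their own. Ehhadh is the bifunctional enzyme of peroxisomes, which hydrates and dehydrogenates the chain and is a classic PPARα target. Its wild-type signals were 5494, 3974 and 2610 and its KO signals 8342, 4495, 7985 and 12985. KO replicates 1, 3 and 4 lay above every wild-type array, while KO replicate 2 lay inside the wild-type range. The log2 difference was 1.03 ± 0.32 (adjusted p = 0.135), and 1.30 ± 0.26 without KO replicate 2 (limma adjusted p = 0.0153).

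Acot1 encodes a cytosolic thioesterase that splits long-chain acyl-CoA into fatty acid and free CoA. It read 1393, 1141 and 823 in wild type and 2840, 1698, 1682 and 2269 in KO. Here all 4 KO arrays were above all 3 wild-type arrays, KO replicate 2 included. The log2 difference of 0.90 ± 0.21, or 1.87-fold, did not pass with all arrays (limma adjusted p = 0.0639), and the genotypes differed 1.99-fold without KO replicate 2 (adjusted p = 0.0234).

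Abcd2, a peroxisomal transporter of very long-chain acyl-CoA, went the other way. Its signals were 2743, 2522 and 2676 in wild type and 1691, 2355, 1267 and 1853 in KO. All KO arrays were below all wild-type arrays, with KO replicate 2 the nearest to them. The log2 difference was -0.59 ± 0.17 (limma adjusted p = 0.123), and -0.73 ± 0.14 without KO replicate 2 (adjusted p = 0.0145). In that fit 3 of 34 members were higher (8.82%), Acsm3, Ehhadh and Acot1, against 3.14% of all probe sets, and 1 of 34 was lower (2.94%), Abcd2, against 4.21%. The share of lower members was thus not above the background.

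**Figure D2:**
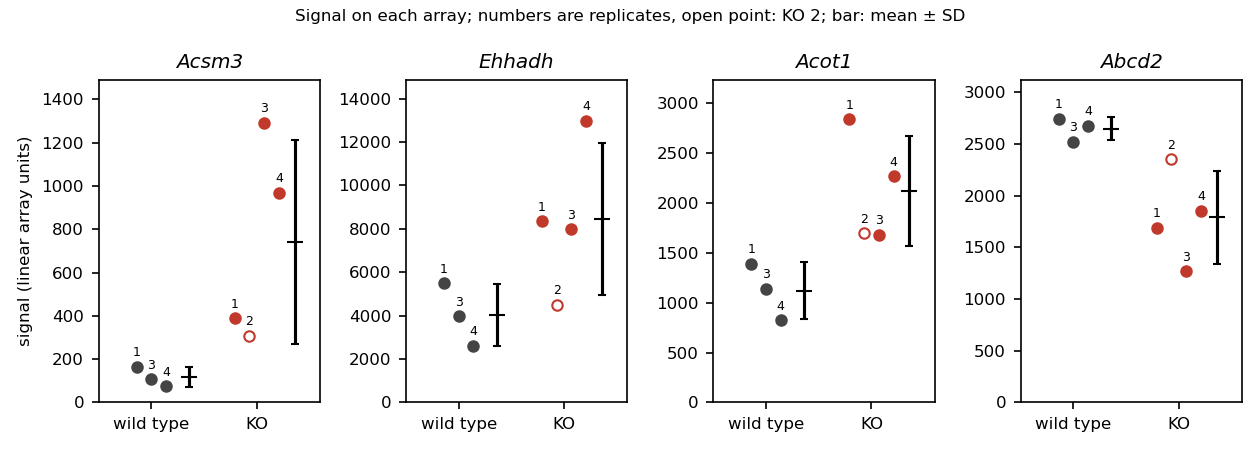
Signal in linear array units on each array for Acsm3, Ehhadh, Acot1 and Abcd2, with points numbered by replicate, KO replicate 2 as an open point, and the group mean ± SD beside the points (wild type n = 3, KO n = 4). KO and wild-type points do not overlap for Acsm3, Acot1 and Abcd2, while for Ehhadh KO replicate 2 (4495) lies among the wild-type points.

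The sequences before the start sites of the 3 genes that were higher without KO replicate 2 are shown because these are the members whose rise was called there. Each run is the 250 bases before the start in RefSeq (GRCm38.p6), 5′ to 3′ on the gene's strand, with capitals marking CCAAT or its complement ATTGG, a common promoter element. The windows are chr7:119760673-119760922 (plus strand) for Acsm3, chr16:21787835-21788084 (minus strand) for Ehhadh and chr12:84009252-84009501 (plus strand) for Acot1.
Acsm3: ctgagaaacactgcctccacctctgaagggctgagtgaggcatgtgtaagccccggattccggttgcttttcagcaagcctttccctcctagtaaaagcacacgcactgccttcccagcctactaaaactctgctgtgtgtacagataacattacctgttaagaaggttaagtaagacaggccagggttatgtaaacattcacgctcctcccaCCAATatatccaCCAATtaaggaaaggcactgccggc
Ehhadh: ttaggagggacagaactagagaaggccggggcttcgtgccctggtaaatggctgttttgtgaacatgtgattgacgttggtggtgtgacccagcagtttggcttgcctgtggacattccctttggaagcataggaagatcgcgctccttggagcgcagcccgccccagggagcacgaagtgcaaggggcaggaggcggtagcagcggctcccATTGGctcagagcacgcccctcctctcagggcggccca
Acot1: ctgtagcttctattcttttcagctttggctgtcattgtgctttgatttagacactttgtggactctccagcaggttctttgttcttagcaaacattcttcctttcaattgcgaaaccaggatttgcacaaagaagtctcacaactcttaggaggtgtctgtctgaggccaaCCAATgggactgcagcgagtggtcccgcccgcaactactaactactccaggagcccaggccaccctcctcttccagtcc

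The letters CCAAT, searched on both strands, occurred in all 3 windows and in 16 of the 30 members found in the promoter table, against 33.8% of all 32851 windows of this length. A member counts if any of its windows matches, whereas the percentage is of single windows. Member counts and percentages are thus not directly comparable, here and for the motifs below. The first capitals begin 37 bases before the Acsm3 start, 38 before that of Ehhadh and 79 before that of Acot1, and this motif was chosen after the sequences were seen. The direct repeat bound by PPAR with RXR, searched as AGGTCANAGGTCA on both strands, was in 0 of the 30 members and in 0.0335% of all windows. Its half-site AGGTCA, any copy within the repeat included, was in 6 members (Acadm, Acadvl, Acot4, Cpt1a, Echs1 and Scp2) and in 14% of all windows. These matches describe letters near the start only. An exact repeat as rare as 0.0335% of windows would be absent from nearly any 30 genes. Its absence here therefore says nothing of PPAR binding.

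Transport of acyl groups on carnitine showed small differences that did not pass. Cpt2, the inner carnitine palmitoyltransferase, read 13494, 11486 and 12687 in wild type and 10447, 11297, 8795 and 10201 in KO. The groups did not overlap, though KO replicate 2 and wild-type replicate 3 nearly met, and the log2 difference was -0.30 ± 0.11 (limma adjusted p = 0.2). The other probe set of Cpt2, at 370 to 542, differed by 0.13 and overlapped. Cpt1a, the outer transferase of the liver type and the step inhibited by malonyl-CoA, read 1632, 1468 and 1584 in wild type and 1809, 1163, 893 and 1124 in KO. The groups overlapped only through KO replicate 1, the highest of the 7 arrays (log2 difference -0.36 ± 0.20, adjusted p = 0.396 by limma). Slc22a5, which imports carnitine into cells, differed by -0.25 ± 0.14. Crat, the carnitine acetyltransferase of mitochondria and peroxisomes, lay within a 1.19-fold range over all 7 arrays, the narrowest of the members. Acsl5, a long-chain acyl-CoA synthetase, differed by -0.19 ± 0.15.

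Genes of the mitochondrial oxidation steps, with electron transfer and the auxiliary enzymes, stayed close to their wild-type signal. They were grouped by step and are called matrix genes here for short. Acsm3, which was called higher, and Acot2 are also of the matrix but are not in this group. These 14 genes were the acyl-CoA dehydrogenases Acadm, Acadl, Acadvl and Acads, the trifunctional protein subunits Hadha and Hadhb, the short-chain enzymes Hadh and Echs1, the thiolase Acaa2, the electron transfer genes Etfa, Etfb and Etfdh, and the auxiliary enzymes Decr1 and Eci1 for unsaturated chains. Their log2 differences ran from -0.05 to 0.13 with a median of 0.04, and adjusted p-values from 0.749 to 0.99. The 95% intervals lay between -0.29 and 0.49, so a change of over 1.4-fold on this scale was outside the interval of each of the 14. Acadm, which acts on medium chains, may stand for the group: it read 25558, 24544 and 29160 in wild type and 26427, 23076, 27714 and 31786 in KO. In each of the 14 the genotypes overlapped. Decr1 was read the same way by its brightest probe set (0.03), while its other one, at 3494 to 8451, differed by -0.46 (limma adjusted p = 0.266). With signals of 7181 to 40291 these probe sets were among the brightest on the arrays, whose highest signals were 31036 to 40460, where an array may register differences only in part; this was not tested.

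What spread the matrix genes had was shared by array. KO replicate 4 gave the highest KO signal for 14 of the 14 and the highest of all 7 arrays for 13, and wild-type replicate 3 gave the lowest wild-type signal for 14 of 14. KO replicate 2 was the lowest KO array for 11. The mean of the 14 log2 values relative to wild type was 0.04, -0.14 and 0.11 on the wild-type arrays and -0.03, -0.13, 0.06 and 0.26 on the KO arrays, so the genotypes overlapped. Across the 91 pairs of these genes the median Pearson correlation over the 7 arrays was 0.92 (0.09 to 0.99), with all points sharing the array and its scaling. The 99th percentile of all signals was 13925, 12087 and 13096 on the wild-type arrays and 13422, 12535, 13549 and 14063 on the KO arrays. It was lowest on wild-type replicate 3 and highest on KO replicate 4, like the matrix mean, but wild-type replicate 1 was second highest with a matrix mean of 0.04. Its part in the shared spread was not tested.

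**Figure D3:**
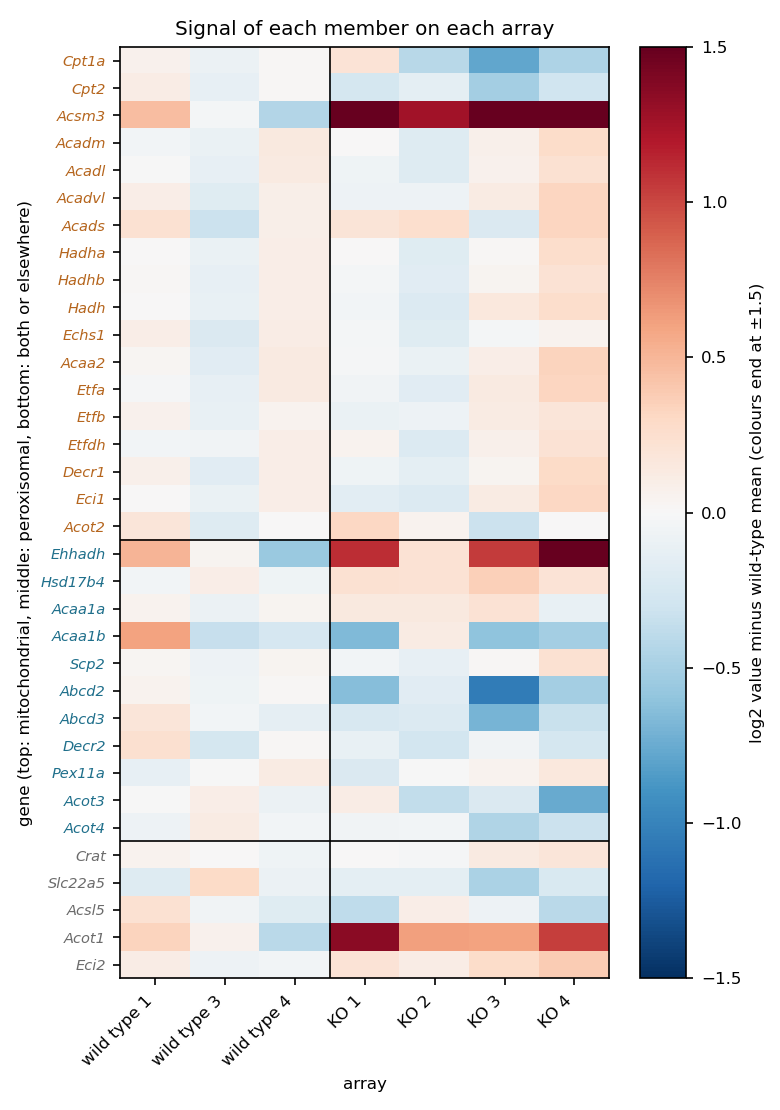
Log2(signal + 30.6) of each of the 34 genes on each of the 7 arrays, minus the gene's wild-type mean; red is higher and blue lower, and the colours end at ±1.5. The matrix genes shift together by array and are highest on KO replicate 4, whereas Acsm3, Ehhadh and Acot1 are red on the KO arrays and Abcd2 is blue, each more weakly on KO replicate 2 than on KO replicate 4.

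Of the 11 peroxisomal genes 0 passed with all arrays, and they lay on both sides of 0. Hsd17b4, the second bifunctional enzyme, which handles branched and very long chains, read 5530, 6111 and 5457 in wild type and 6684, 6609, 7324 and 6546 in KO. All KO arrays were above all wild-type arrays, but the log2 difference of 0.25 ± 0.10 did not pass (limma adjusted p = 0.218), and its other probe set differed by 0.13 and overlapped. Abcd3, the most general of the peroxisomal acyl-CoA transporters, read 13524, 11601 and 10836 in wild type and 10096, 10328, 7326 and 9432 in KO. Like Abcd2 it did not overlap and was lower (-0.37 ± 0.14, limma adjusted p = 0.199). Of the 4 probe sets of Abcd2, 2 of the 3 tested differed by -0.59 and -0.46, the third by 0.33.

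The thiolase pair showed no called change. Acaa1b, one of 2 mouse genes of the peroxisomal thiolase, read 3418 on wild-type replicate 1 and 2456 on KO replicate 2, against 1406 to 1878 on the other 5 arrays (log2 difference -0.41 ± 0.24, limma adjusted p = 0.448). Acaa1a, its close relative, differed by 0.10 ± 0.12. Scp2, whose long form is the thiolase for branched chains, differed by 0.02 ± 0.11, Decr2 by -0.18 ± 0.13 and Pex11a, which promotes peroxisome division, by 0.00 ± 0.12. Eci2, an enoyl-CoA isomerase found in both compartments, read 7303, 6438 and 6589 in wild type and 7824, 7321, 8203 and 8815 in KO. All KO arrays were above all wild-type arrays, by the narrow margin of 7321 to 7303 (0.24 ± 0.10, limma adjusted p = 0.261). Because Acaa1a, Hsd17b4 and Hadh were read from _x_at and Acot3 and Acaa2 from _s_at probe sets, whose probes may match related sequences, values of close relatives are uncertain.

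Acyl-CoA thioesterases are close relatives encoded side by side. Acot2, of the mitochondrial matrix, lies next to Acot1 on chromosome 12, and RefSeq lists 0 genes between them. It read 3592, 2755 and 3160 in wild type and 3920, 3258, 2504 and 3165 in KO, a log2 difference of 0.01 ± 0.15, against 0.90 ± 0.21 for Acot1. The other probe set of Acot2, at 466 to 1101, differed by 0.26 ± 0.25 (0.42 without KO replicate 2) and overlapped. The peroxisomal forms Acot3 (-0.31 ± 0.22) and Acot4 (-0.22 ± 0.16) lie in the same gene cluster and read 115 to 235 and 265 to 407 over the 7 arrays. Whether these differences differ from that of Acot1 was not tested, and probes of such similar genes may share signal.

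Set side by side, the 18 mitochondrial genes had a median log2 difference of 0.03 and the 11 peroxisomal genes one of -0.18, where all 27022 tested probe sets had a median of 0.00. Of the mitochondrial genes 15 lay above 0 and 3 below, though with quantile normalization their median was -0.04, so their sign depends on the scaling. Of the peroxisomal genes 4 lay above and 7 below, and their median was -0.16 with quantile normalization. The median size of a difference, without its sign, was 0.04 in mitochondrial and 0.25 in peroxisomal genes, against 0.18 over all probe sets. The highest of the 7 signals was a median of 1.4 times the lowest in mitochondrial genes, 1.54 times in peroxisomal genes and 1.72 times over all probe sets. Per array, the mean peroxisomal value minus the mean mitochondrial value, each relative to wild type, was 0.05, 0.09 and -0.14 in wild type and -0.11, 0.02, -0.26 and -0.36 in KO. These overlapped between the genotypes. Among arrays with neighbouring record numbers, within the first set (wild-type replicate 1 and KO replicates 1 and 2) the medians were -0.12 in both classes, and within the second (replicates 3 and 4 of both genotypes) they were 0.16 and -0.04. No test was made between the compartments.

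Over all 34 genes the genotypes did not overlap in 7. In 4 of them all KO arrays were higher (Acsm3, Hsd17b4, Acot1 and Eci2; 11.8%, against 7.48% of all tested probe sets), and in 3 all were lower (Cpt2, Abcd2 and Abcd3; 8.82%, against 7.25%). The share below was near the background. The 34 genes had 27 further probe sets, of which 25 were tested and 0 passed, with or without KO replicate 2.

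The arrays were deposited under 2 runs of record numbers, called the first and second deposited set here; whether they were processed apart is not stated. Acsm3 differed by 3.25 in the second deposited set (limma adjusted p = 0.00268) and by 0.94 in the first, which holds 1 wild-type and 2 KO arrays, KO replicate 2 among them. Ehhadh differed by 1.65 in the second (limma adjusted p = 0.0252) and by 0.16 in the first. In the first it read 5494 on wild-type replicate 1, 8342 on KO replicate 1 and 4495 on KO replicate 2. The part of the deposited set and that of KO replicate 2 cannot be told apart there. With the deposited set as a covariate Acsm3 passed (2.33, adjusted p = 0.0272) and the other 33 did not.

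Summed signals of 13 measured hepatocyte markers (of 14 listed, 0 at zero signal) were 8438, 2704 and 27629 in wild type and 2499, 13858, 1833 and 16195 in KO. Hepatocytes are known to express Ehhadh and Acsm3, so the sums are set beside these genes. Wild-type replicate 4 had the highest hepatocyte sum with the lowest Acsm3 (74) and Ehhadh (2610), and KO replicate 3 had the lowest sum with the highest Acsm3 (1293). KO replicate 4, with the highest hepatocyte sum of the KO arrays, had the highest Ehhadh of all arrays (12985), and wild-type replicate 1 was above wild-type replicate 3 in the sum, in Ehhadh and in Acsm3. The part of hepatocyte RNA in these differences was not tested.

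Skeletal muscle markers (11 of 11 measured, 0 at zero) summed to 27097 to 44592 in wild type and 23267 to 41671 in KO. The 3 arrays of the first deposited set were the high ones. Kidney tubule markers (10 of 10 measured, 0 at zero) were nearly level, at 1567 to 1647 and 1562 to 1680. White fat cell markers (5 of 5) summed to 11133 to 12251 in wild type and 7739 to 11818 in KO, and KO replicates 1, 3 and 4 lay below every wild-type array while KO replicate 2 lay among them. Most of this sum was Retn, at 9171 to 10539 in wild type and 5735 to 9938 in KO. Lep was lower on all KO arrays, while Agt, Hoxc9 and Tcf21 overlapped between genotypes, so the sum does not speak for the list. The leukocyte (8 of 8), erythroid (5 of 6) and fibroblast (7 of 7) sums overlapped between genotypes, at 8932 to 10240 against 8209 to 14079, 3487 to 6207 against 3631 to 5678, and 52272 to 58543 against 34341 to 54604. Of the markers of all these types 0 were called with all arrays, and Lep, Retn, Lyz2, Lum and Fap were called without KO replicate 2. These were 2 of 5 tested white fat, 1 of 7 leukocyte and 2 of 7 fibroblast markers. In that fit Lyz2, the leukocyte marker, was higher in KO, and Lep, Retn, Lum and Fap were lower. Of all probe sets, 3.14% were called higher and 4.21% lower in that fit. The part of these cell types in the member differences was not tested.

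**Figure D4:**
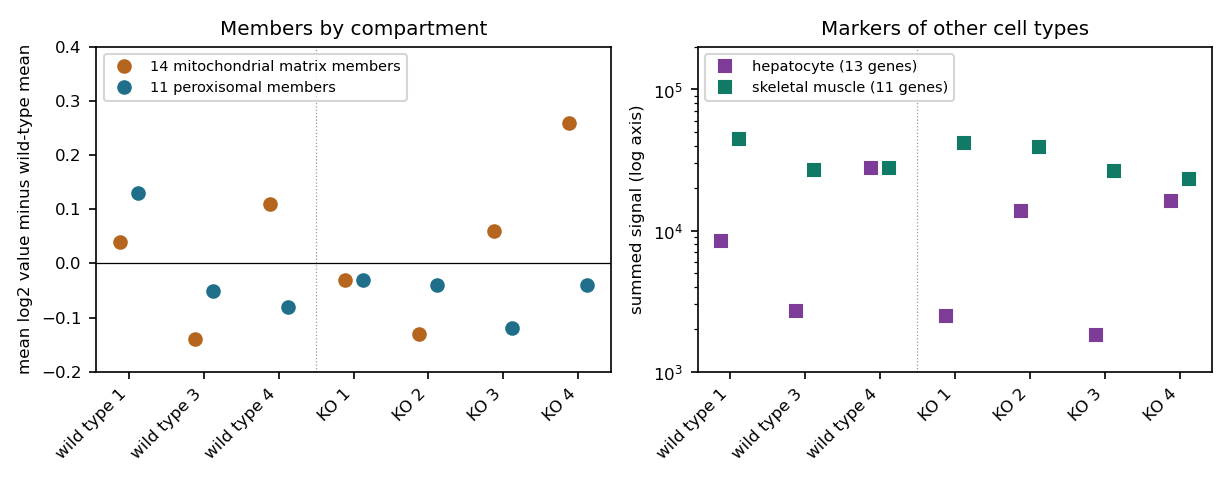
Left, mean log2 value relative to wild type of the 14 mitochondrial matrix genes and the 11 peroxisomal genes on each array; right, summed signal of 13 hepatocyte and 11 skeletal muscle markers on each array (log axis). The matrix mean is highest on KO replicate 4 (0.26), the hepatocyte sum spans 1833 to 27629, and the 3 arrays of the first deposited set carry the highest muscle sums.

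Other genes of the pathway were taken from lists of related genes. Of 17 tested further genes of mitochondrial oxidation and ketone use, 0 passed (median -0.01). Acss1, a mitochondrial acetyl-CoA synthetase, had the smallest p (4077 ± 887 to 5915 ± 674, log2 difference 0.55 ± 0.15, limma adjusted p = 0.0927), followed by Acsf3 (-0.43), Oxct1 (-0.42), the ketone body transferase, and Acad11 (0.26). With the mean taken over probe sets of a gene, Acss1 differed by 0.17 (limma adjusted p = 0.663). Without KO replicate 2, Acss1 rose and Oxct1 fell, which is 1 of 17 each, against 3.14% and 4.21% of all probe sets. Of 26 further peroxisomal genes 0 passed (median -0.09), and the 4 with the smallest p were Slc27a2 (0.44), a very long-chain acyl-CoA synthetase, Lonp2 (-0.35), Far1 (-0.58) and Phyh (-0.34). Without KO replicate 2, Slc27a2 and the catalase gene Cat rose, which is 2 of 26 higher and 0 lower, against 3.14% and 4.21% of all probe sets.

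Peroxisome biogenesis genes had a median difference of -0.17, and 0 of 12 were called. Pex10, of the import machinery, was at 630 ± 37.6 (SD, n = 3) and 405 ± 38.3 (n = 4), with no overlap between genotypes (-0.60 ± 0.13, limma adjusted p = 0.0523). Pex11g was at 1101 ± 92.3 and 726 ± 127 (-0.59 ± 0.15, limma adjusted p = 0.0732), and Pex3 (-0.22) and Pex5 (0.27) followed. Pex10 and Pex11g fell without KO replicate 2 (limma adjusted p = 0.0317 and 0.0091). This is 2 of 12 lower and 0 higher, against 4.21% and 3.14% of all probe sets.

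Among the regulators of the pathway 1 of 14 passed. Lpin1, a phosphatidate phosphatase that also acts with PGC-1α on oxidation genes, rose from 6439 ± 382 to 9639 ± 1148 (0.57 ± 0.11, limma adjusted p = 0.0393). It missed the threshold without any one array other than KO replicate 2 (wild-type replicate 1, 3 or 4, or KO replicate 1, 3 or 4), with differences of 0.51 to 0.61 and adjusted p-values of 0.0989 to 0.149, and with array medians made equal (adjusted p = 0.0632) or the mean taken over probe sets of a gene (0.53, adjusted p = 0.0737). The fits that left out 1 of those arrays called 7 to 40 probe sets in all, in place of 431. Rxra (0.49), the partner receptor of the PPARs, Sirt1 (0.43) and Esrrg (-0.52) did not pass with all arrays, but did without KO replicate 2, with limma adjusted p-values of 0.0256, 0.0418 and 0.0492. Lpin1 included, 3 of the 14 regulators were higher there and 1 was lower, against 3.14% and 4.21% of all probe sets. Of 13 tested genes known as PPAR targets, members aside, 0 passed (median 0.15). Angptl4, an inhibitor of lipoprotein lipase, was at 9070 ± 1193 and 15221 ± 3456 (0.73 ± 0.17, limma adjusted p = 0.0603) and Cyp4b1 at 5911 ± 814 and 11074 ± 3375 (0.86 ± 0.22, limma adjusted p = 0.0796), while Fabp3, a fatty acid binding protein, differed by -1.01 ± 0.27 and Cd36 by 0.21. Without KO replicate 2, Angptl4 and Cyp4b1 rose and Fabp3 and Ucp3 fell, which is 2 higher and 2 lower of 13 genes, against 3.14% and 4.21% of all probe sets. Of 10 genes of acyl-CoA synthesis and fatty acid entry 0 passed (median -0.04). Acacb, which makes the malonyl-CoA that inhibits the outer carnitine transferase, differed by 0.80 ± 0.18 (limma adjusted p = 0.0572), Fabp5 by -0.44, Acsl6 by -0.62 and Acsl3 by -0.26. Acacb rose and Fabp5 fell without KO replicate 2, which is 1 of 10 each, against 3.14% and 4.21% of all probe sets. With the mean taken over probe sets of a gene, Acacb differed by 0.49, Rxra by 0.29 and Esrrg by -0.28. Fabp3 differed by -0.7 and Acsl6 by -0.2 there, and Acss1, Acad11 and Lonp2 also moved by more than 1 SE. Pex10 passed there (limma adjusted p = 0.041), and the other genes named by smallest p moved by less.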

How the data were processed

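Each deposited value is a linear signal intensity of a probe set, made by the authors with GCOS 1.2, per the submitters' processing notes. Total RNA had been isolated with Trizol and labelled with biotin, per the labels. The scaling and the build are not given in the sources used here. After trimming 2% at each end, the deposited intensities averaged 500.003 on each array. This scaling was kept. Of 45037 probe sets other than controls, 34945 had 1 gene symbol.

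An offset of 30.6, which is the 20th percentile over the table, was added before taking log2. Folds on this scale understate changes of dim probe sets. Probe sets under the 40th percentile of mean log2 value were dropped, which left 27022, named or not; those with 1 symbol represent 13102 genes. KO and wild type were compared in R 4.3.3 by the moderated two-sided test of limma 3.58.1, whose variance prior followed mean signal, without covariates and with Benjamini-Hochberg adjustment over all tested probe sets and a threshold of 0.05. The fit was tested on simulated data. Members aside, up to 4 genes per list were named by smallest p, and others (Cat, Ucp3 and single markers) after their values were seen, because they passed without KO replicate 2 or define a cell type. The members, lists and alternatives were chosen with earlier results of these data known. Members are not replicates, so no test was made over them.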

Additional observations from a re-analysis of the deposited data

How the results depend on the processing

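The count of members called higher was 1 (Acsm3) with quantile normalization, equal array medians, offsets of 1 and 100, the mean over probe sets of a gene and the deposited set as a covariate, and the count of members called lower was 0 in each. The log2 difference of Acsm3 was 2.49 with the offset of 1 and 1.8 with that of 100, in place of 2.22. Acsm3 lost its call without the filter on dim probe sets (adjusted p = 0.0797, count 0) and without the mean-variance trend (adjusted p = 0.0996, count 0), at the same log2 difference of 2.22, and Lpin1 lost its call in both too (0.0797 and 0.129). Those fits called 100 and 6 probe sets in all, in place of 431. The second deposited set alone gave 2 members higher. The first alone, added after seeing the data, holds 1 wild-type array, so no count is drawn from it. Leaving out 1 array gave 0 to 3 higher and 0 to 1 lower. With the replicate number as a block, 3 members were higher (Acsm3, Ehhadh, Acot1) and 1 lower (Abcd2), and 2183 probe sets passed in place of 431. KO replicate 2 has no partner and drops out of that contrast. Deviations of same-numbered arrays from their group mean correlated by 0.057, 0.149 and 0.105. Differently numbered arrays were not compared, so these values cannot tell whether the numbers pair the arrays.

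The peroxisomal median of -0.18 became -0.04 in the second set alone, -0.09 with Eci2 counted as peroxisomal, and -0.20 to -0.06 when 1 array was left out. The mitochondrial median of 0.03 became -0.12 in the first set alone, where peroxisomal minus mitochondrial was 0.01 in place of -0.21. Other alternatives moved the medians by less than the SD between arrays. Of 612 member differences under an alternative, 548 kept their side of the threshold and moved by less than 1 SE or kept their call, 48 moved further without a call, 7 gained a call, 9 lost it and 0 reversed as a called value. The lost calls were all of Acsm3, the 1 member called in the main fit. It kept its call in 9 of 18 alternatives, the first set alone being among the 18. The gained calls were of Ehhadh (3), Acot1 (2) and Abcd2 (2). They came without KO replicate 2, with the replicate block or in the second set alone. Whether bright signals limit the differences of matrix genes was not tested.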
